A study of Mus musculus with 2 samples.

Results

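The Toll-like receptor family was followed in CD11c+ spleen cells of wild-type mice, profiled by scRNA-Seq. Its members here were the 10 genes Tlr1, Tlr2, Tlr3, Tlr4, Tlr7, Tlr8, Tlr9, Tlr11, Tlr12 and Tlr13, named among the 27032 genes of the count tables. They were chosen with earlier results of these data known, and Tlr5 and Tlr6 were placed among the partner genes instead. The 2 samples, replicates 1 and 2, were both wild-type spleen on the C57BL/6J background and kept free of specific pathogens. No treatment is named in their labels. The methods of the study state that its mice were adults, of both sexes. Sex-linked transcripts, given with Tlr8 below, were those of male cells in both samples. The sources used here give neither a closer age nor how many mice were behind each sample. Dendritic cells, macrophages and other cells retained on CD11c beads were marked with sample tags and captured in microwells with barcoded beads (BD Rhapsody), both samples in the same run. Counts are of unique molecular identifiers (UMIs), in which the copies made of a transcript by amplification count 1 time. There was 1 condition, so the comparisons below are between cell types of the same samples.

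Toll-like receptors are membrane proteins that bind conserved microbial structures and signal through the adaptor MyD88, or, for TLR3 and in part TLR4, through TRIF. TLR1, TLR2 and TLR4 sit at the cell surface and sense bacterial lipoproteins and lipopolysaccharide, whereas TLR3, TLR7, TLR8, TLR9 and TLR13 sense nucleic acids inside endosomes. TLR11 and TLR12 are endosomal receptors of mice for profilin of Toxoplasma. In the spleen, the receptors that a dendritic cell subset carries are known to set which pathogens it answers, with TLR3 on conventional type 1 dendritic cells (cDC1s) as the textbook example.

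Cells were sorted into 9 types by UMI minimums of 14 gate genes, taking the first type that a cell met. Macrophages held at least 20 UMIs of Vcam1 and 5 of C1qb. Mature DCs held Ccr7 and Fscn1, cDC1s held Clec9a and Xcr1, plasmacytoid DCs (pDCs) held Siglech and Ccr9, and B, T and NK cells held Cd79a, Cd3e and Ncr1. The remaining conventional type 2 DCs were split into cells with Clec4a4, which encodes DCIR2 (DCIR2 cDC2s), and cells with Clec10a or Cd209a (CLEC10A cDC2s). Of 5651 cells left after filtering, 4433 entered a gate, and 13.8% of these met the gates of more than 1 type. The gates took 293 and 130 macrophages, 684 and 568 cDC1s, 556 and 456 DCIR2 cDC2s, 484 and 408 CLEC10A cDC2s and 138 and 173 mature DCs in replicates 1 and 2. They took 65 and 172 B cells, 41 and 159 T cells, 38 and 36 NK cells, and only 13 and 19 pDCs.

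Genes outside the gates bore out some of these names better than others. All 12 further macrophage markers, and all 10 of the B cell, the T cell and the NK cell lists, were highest in their own gate in both samples. This held for 9 of 10 markers of mature DCs, 7 of 10 of cDC1s and 6 of 10 of pDCs. It held for 0 of 8 markers of DCIR2 cDC2s and for 1 of 8 of CLEC10A cDC2s, the lectin gene Mgl2, so both cDC2 names stand for their gate genes only. The median depth of a cell ran from 6145 UMIs in T cells to 20890.5 in cDC1s, each in 1 of the samples. No cell barcode was shared by both libraries (0 in common). Levels are given as UMIs per 1000000 UMIs of a cell type in a sample (CPM). UMI levels were not scaled by transcript length, so they were compared between cell types and not between genes.

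The receptors fell into groups by the cells that carried them. Tlr3, Tlr11 and Tlr12 were highest in cDC1s, Tlr2, Tlr4, Tlr7, Tlr8 and Tlr13 in macrophages, and Tlr1 and Tlr9 were spread over several types. Summed over the 10 genes, macrophages had 796 and 736 CPM and cDC1s 714 and 646 CPM in replicates 1 and 2. The 2 cDC2 types and mature DCs lay between 304 and 368 CPM in either sample, and B, T and NK cells lay between 83.9 and 234 CPM. A median macrophage held UMIs of 5 of the 10 genes in both samples, a median cDC1 of 3 and a median NK cell of 0.

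**Figure D1:**
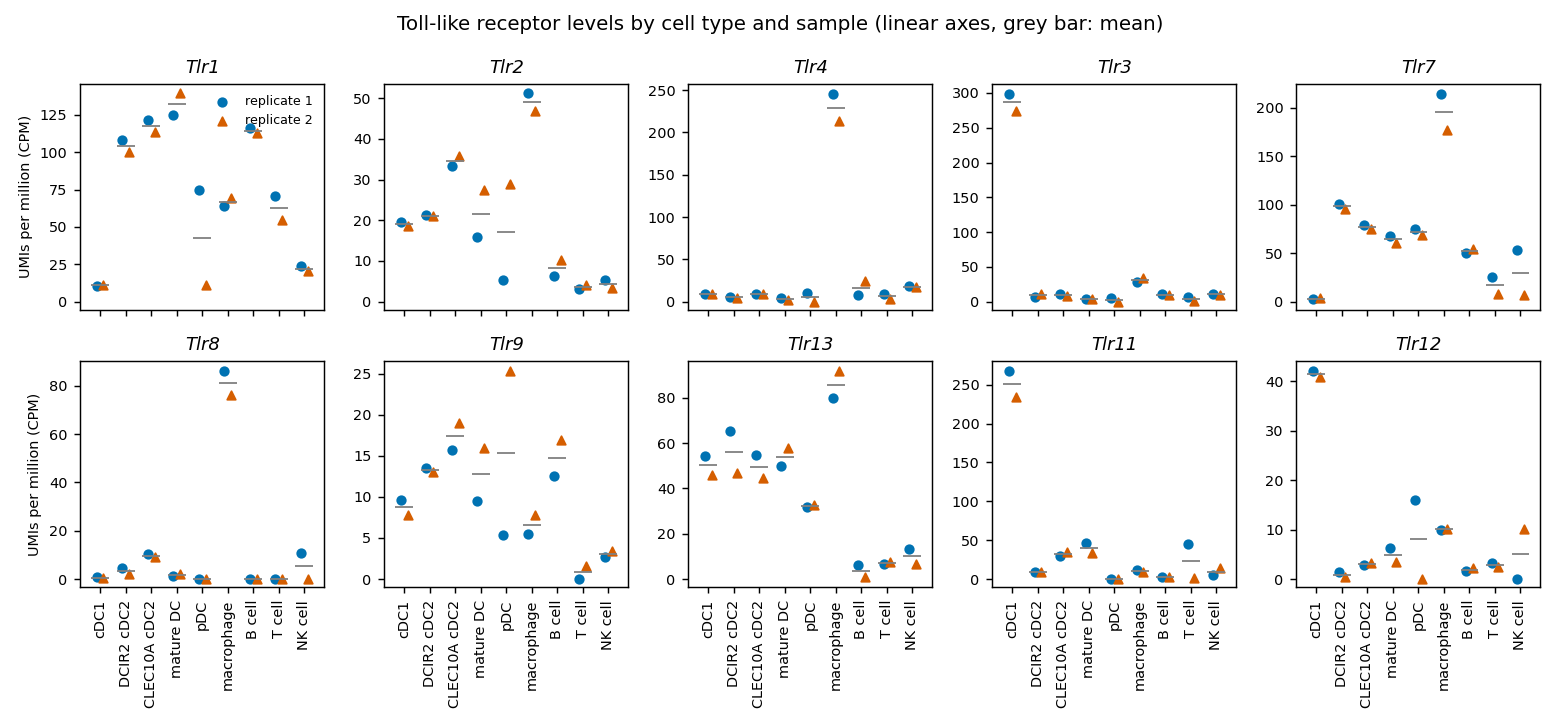
Level of each Toll-like receptor gene (CPM, linear axes, a scale for each gene) in the 9 cell types, with a circle for replicate 1, a triangle for replicate 2 and a grey bar for their mean. Tlr3, Tlr11 and Tlr12 stand out in cDC1s, Tlr4, Tlr7 and Tlr8 in macrophages, and the points of pDCs, T cells and NK cells lie apart for several genes.

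UMIs were summed per sample and type and tested with edgeR's quasi-likelihood test, with p-values adjusted by the Benjamini-Hochberg method over all 11903 genes tested, all 10 receptors among them. A gene passed at an adjusted p under 0.05, and errors of log2 fold changes are standard errors. Both samples come from 1 run, so these p-values measure only the spread between 2 sums per type. That spread was estimated over all 9 types together, so the 2 sums of a type with few cells, such as pDCs, add little of their own. Levels differed among the 9 types for 10 of 10 receptors, where 76.6% of all genes did. When the types were ordered by their mean level, the step between neighbours passed the test in 12 of 80 steps, against a background of 6.95% over all genes. The top step passed for 8 receptors and not for Tlr1 or Tlr9, so for these 2 genes the highest types could not be ordered.

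cDC1s were set against each cDC2 type to ask how the receptors divide among conventional DCs. Against DCIR2 cDC2s, 4 receptors were higher in cDC1s and 3 lower, where 17.0% of all genes tested were higher and 17.2% lower. Against CLEC10A cDC2s, 3 were higher and 5 lower, where 14.1% of genes were higher and 15.0% lower. The median log2 difference of the receptors was 0.04 and -0.28 in these comparisons, and that of all genes was 0.01 in both. Between both cDC2 types, 0 receptors were higher in DCIR2 cDC2s and 3 lower, where 2.00% of genes were higher and 3.55% lower, with medians of -0.59 for the receptors and 0.00 for all genes.

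**Figure D2:**
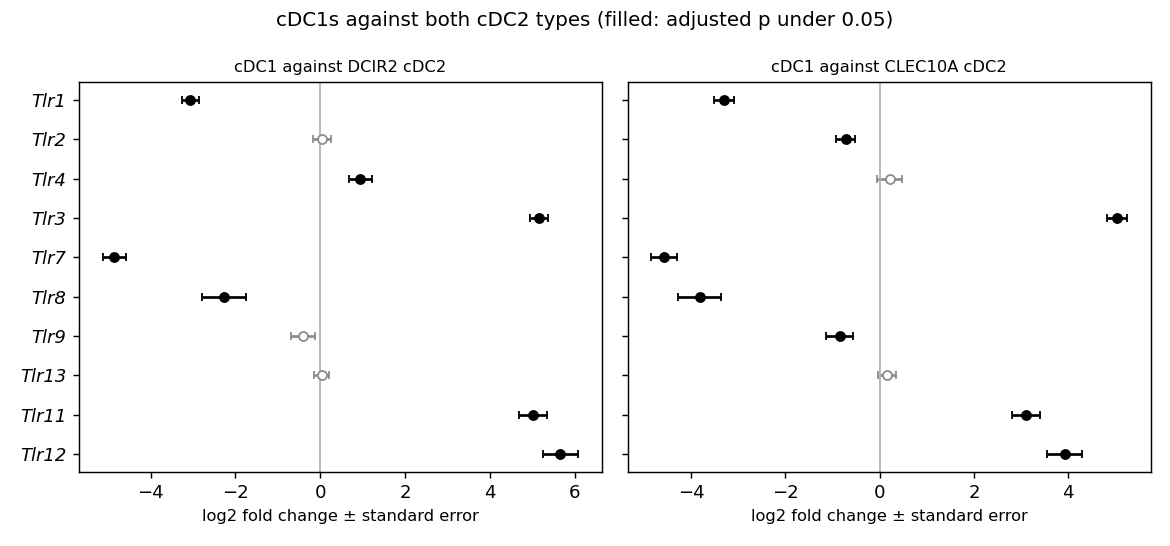
Log2 fold change of each receptor in cDC1s against DCIR2 cDC2s (left) and CLEC10A cDC2s (right), with the standard error as a bar and filled points for an adjusted p under 0.05. Tlr3, Tlr11 and Tlr12 lie between 3.10 and 5.66 on the right of 0, and Tlr1 and Tlr7 between -3.07 and -4.86 on its left.

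Among the surface receptors, Tlr4 marked macrophages. Tlr4, the receptor for lipopolysaccharide, stood at 245 and 213 CPM in macrophages of replicates 1 and 2. It was at 9.57 and 8.68 CPM in cDC1s, 5.94 and 4.83 CPM in DCIR2 cDC2s, 8.79 and 8.55 CPM in CLEC10A cDC2s and 3.78 and 2.00 CPM in mature DCs. NK cells had 18.6 and 17.0 CPM, from 7 and 5 UMIs, and B cells 7.85 and 24.3 CPM. No other type came near the macrophages in either sample. Against the mean of the 3 cDC types, taken over their log2 levels, Tlr4 was higher in macrophages by 4.99 ± 0.16 on the log2 scale, which is 31.9-fold (adjusted p = 7.31e-16). Tlr4 UMIs were seen in 89.8% of macrophages of replicate 1, with an exact 95% binomial interval from 85.7% to 93.0%, and 90.0% of those of replicate 2, from 83.5% to 94.6%, against 7.32% and 2.52% of the shallower T cells. Thinned to 3000 UMIs per cell, these shares were 49.2% and 44.2% in macrophages and 3.89% and 0.975% in T cells. Such intervals and the floors below cover counting error only.

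Smaller differences of Tlr4 among DCs rested on few UMIs. Tlr4 was higher in cDC1s than in DCIR2 cDC2s, by 0.94 ± 0.27 (adjusted p = 0.011), from 127 and 102 UMIs against 43 and 29. The call was lost without replicate 1 of cDC1s (adjusted p = 0.0840) or replicate 1 or 2 of DCIR2 cDC2s (0.0510 and 0.122). Against CLEC10A cDC2s the difference was 0.21 ± 0.27, with a 95% interval from -0.35 to 0.77, and other intervals of differences are given at the same level. Tlr4 was lower in mature DCs than in the cDC mean (-1.36 ± 0.47, adjusted p = 0.0318), a call that rested on 6 and 4 UMIs in mature DCs and was lost without either (adjusted p = 0.312 without replicate 2 and 0.0655 without replicate 1).

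Tlr2, which pairs with TLR1 or TLR6 to bind lipoproteins, was also highest in macrophages. Its level was 51.2 and 46.9 CPM in macrophages, 33.3 and 35.7 CPM in CLEC10A cDC2s, 21.3 and 21.0 CPM in DCIR2 cDC2s and 19.6 and 18.6 CPM in cDC1s. Macrophages and CLEC10A cDC2s did not overlap with each other or with the other types listed. Macrophages exceeded the cDC mean by 1.11 ± 0.16 (2.15-fold, adjusted p = 9.39e-06). Tlr2 was lower in cDC1s than in CLEC10A cDC2s by -0.72 ± 0.20 (adjusted p = 0.0108), and lower in DCIR2 cDC2s than in CLEC10A cDC2s by -0.76 ± 0.21 (adjusted p = 0.0374). The first call was lost without either cDC1 sum (adjusted p = 0.0770 and 0.116 without replicates 1 and 2) or without replicate 2 of CLEC10A cDC2s (0.0795). The second was lost without any of its 4 sums, with adjusted p between 0.126 and 0.296, and with doubled gate minimums (0.468). Among cells without a UMI of Clec9a or Xcr1, Tlr2 was at 27.6 and 28.8 CPM in CLEC10A cDC2s and 20.4 and 21.3 CPM in DCIR2 cDC2s.

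Tlr1, the partner of TLR2 for triacylated lipoproteins, was lowest in cDC1s. It stood at 125 and 139 CPM in mature DCs, 122 and 113 CPM in CLEC10A cDC2s, 108 and 100.1 CPM in DCIR2 cDC2s and 116 and 113 CPM in B cells. cDC1s had 10.3 and 11.4 CPM, and macrophages 63.8 and 69.3 CPM. The cDC1 values lay below those of every type but pDCs, where 14 and 3 UMIs gave 74.6 and 10.8 CPM. Tlr1 was lower in cDC1s by -3.07 ± 0.20 against DCIR2 cDC2s (8.38-fold, adjusted p = 3.59e-10) and by -3.30 ± 0.21 against CLEC10A cDC2s (9.84-fold, adjusted p = 2.23e-10). Cells with a Tlr1 UMI made up 12% and 10.9% of cDC1s and 62.6% and 63.6% of DCIR2 cDC2s, although cDC1s were the deeper cells. T cells, which stood at 70.9 and 54.6 CPM, held Tlr1 in 31.7% and 24.5% of cells.

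Tlr1 lies on the same strand as Tlr6, 18467 bases away on chromosome 5 (Tlr1 at chr5:64924679-64933563, GRCm38, minus strand, coding in 1 exon). The genes are close paralogs, so reads of the copies could be split between them or lost, and both values are uncertain to that extent. Tlr6 was lower as well in cDC1s, at 9.57 and 6.72 CPM, than in DCIR2 cDC2s at 24.2 and 17.8 CPM (-1.17 ± 0.28, adjusted p = 0.00292). Tlr5, the flagellin receptor, stood at 0.603 and 0.426 CPM in cDC1s and 12.3 and 8.66 CPM in DCIR2 cDC2s (-4.07 ± 0.51, adjusted p = 2.45e-06).

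Among the nucleic acid receptors, Tlr3 and Tlr7 had opposite distributions in conventional DCs. Tlr3, which binds double-stranded RNA, stood at 299 and 274 CPM in cDC1s. It was at 28.9 and 33.4 CPM in macrophages, 7.33 and 11.2 CPM in DCIR2 cDC2s, 11.4 and 7.69 CPM in CLEC10A cDC2s and 3.78 and 3.50 CPM in mature DCs. Every other type lay below the macrophages in both samples. The difference of cDC1s from DCIR2 cDC2s was 5.16 ± 0.21 (35.7-fold, adjusted p = 7.16e-13) and from CLEC10A cDC2s 5.03 ± 0.21 (32.6-fold, adjusted p = 1.80e-12). Against the next type in order, macrophages, it was 3.25 ± 0.19 (adjusted p = 7.43e-11). UMIs of Tlr3 were seen in 84.4% of cDC1s (interval from 81.4% to 87.0%) and 84.2% (interval from 80.9% to 87.1%), and in 50.4% and 48.0% after thinning to 3000 UMIs, against 4.88% and 1.26% of T cells (1.77% and 0.872% thinned).

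Tlr7 senses single-stranded RNA and was lowest in cDC1s. It stood at 214 and 177 CPM in macrophages, 101 and 95.8 CPM in DCIR2 cDC2s, 79.5 and 74.8 CPM in CLEC10A cDC2s and 74.6 and 68.6 CPM in pDCs. Mature DCs had 67.5 and 61.0 CPM and B cells 50.2 and 54.6 CPM. cDC1s had 2.49 and 3.40 CPM, from 33 and 40 UMIs over 684 and 568 cells. This was below every other type, and below the T cells next in order, with 25.8 and 8.14 CPM from 8 and 10 UMIs, by 1.74 ± 0.57 (adjusted p = 0.0271). Tlr7 was lower in cDC1s by -4.86 ± 0.27 against DCIR2 cDC2s (29.1-fold, adjusted p = 4.36e-11) and by -4.57 ± 0.27 against CLEC10A cDC2s (23.7-fold, adjusted p = 1.36e-10). In replicate 1, 3.22% of cDC1s held a Tlr7 UMI (interval from 2.03% to 4.83%), and in replicate 2, 2.82% (interval from 1.62% to 4.53%). This is no more than the 12.2% and 4.40% of the shallower T cells, against 45.1% and 44.5% of DCIR2 cDC2s and 36% and 30.1% of CLEC10A cDC2s. Whether the few Tlr7 UMIs of cDC1s were background or came from expression in some of these cells was not tested.

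In macrophages Tlr7 was above the next type, DCIR2 cDC2s, by 1.15 ± 0.20 (adjusted p = 0.000181), and above the cDC mean by 2.87 ± 0.16 (7.33-fold, adjusted p = 8.14e-12). The cDC mean is pulled down by cDC1s for Tlr7 and Tlr1. Mature DCs and pDCs therefore lie above it in Tlr7 although their values were below those of DCIR2 cDC2s in both samples. In pDCs, which are known for TLR7 and TLR9, the difference from the cDC mean was 1.15 ± 0.39 for Tlr7, with an interval from 0.34 to 1.97, and missed the threshold (adjusted p = 0.0706). It passed with DESeq2 (adjusted p = 0.00204), without TMM scaling (0.0365) and without the filter on cells (0.0413). Only 33 UMIs of Tlr7 in 32 pDCs lay behind this value.

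Tlr8, the neighbour of Tlr7 on the X chromosome, was concentrated in macrophages. The genes lie 40599 bases apart on the minus strand (Tlr8 at chrX:167242696-167264329, Tlr7 at chrX:167304929-167330558, GRCm38). Tlr13 is on the X chromosome as well. Both samples had the pattern of male cells, with Xist at 0.172 and 0.194 CPM and the Y-linked Ddx3y at 141 and 166 CPM. The levels of these 3 genes were therefore not read in females. Tlr8 stood at 86.1 and 76.3 CPM in macrophages and 10.3 and 9.19 CPM in CLEC10A cDC2s, and at 4.70 and 2.00 CPM in DCIR2 cDC2s and 0.753 and 0.426 CPM in cDC1s. No UMI was found in pDCs, B cells or T cells (0 in each), so that the level in macrophages was at least 12.6-fold, 53.9-fold and 41.6-fold higher, taking 3 UMIs over both samples as the floor. The 0 of 172 B cells of replicate 2 allow a share of cells with a Tlr8 UMI of up to 1.74%, and 0 of 159 T cells up to 1.89%, which sets no limit on cells that express the gene without giving a UMI. Against the cDC mean, macrophages were higher by 4.95 ± 0.23 (30.9-fold, adjusted p = 8.43e-12), and against CLEC10A cDC2s by 3.16 ± 0.30 (adjusted p = 3.67e-07). Tlr7 was thus shared by macrophages and cDC2s, whereas the ratio of Tlr8 to Tlr7 UMIs was 0.402 and 0.430 in macrophages, 0.129 and 0.123 in CLEC10A cDC2s and 0.0464 and 0.0209 in DCIR2 cDC2s.

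The Tlr8 differences among DCs were small in UMIs. It was lower in cDC1s than in CLEC10A cDC2s by -3.82 ± 0.45 (14.1-fold, adjusted p = 3.87e-06) and lower in DCIR2 than in CLEC10A cDC2s by -1.55 ± 0.38 (adjusted p = 0.0220). The latter was lost without replicate 2 of DCIR2 cDC2s (adjusted p = 0.296) or without replicate 1 or 2 of CLEC10A cDC2s (0.140 and 0.108), and with cells of more than 1 gate left out (0.0853). Among cells without a UMI of Clec9a or Xcr1, Tlr8 was at 4.76 and 3.75 CPM in CLEC10A cDC2s and 5.37 and 1.29 CPM in DCIR2 cDC2s, and these values overlapped. The call of lower Tlr8 in cDC1s than in DCIR2 cDC2s (-2.27 ± 0.51, adjusted p = 0.00226) rested on 1 cell, which held 27 of the 34 UMIs of replicate 1 of DCIR2 cDC2s. Without the cell with most UMIs of a member in each sum it was -1.02 with an adjusted p of 0.188, and without replicate 1 of DCIR2 cDC2s it was -1.51 (adjusted p = 0.124). The 12 macrophage markers summed to 409 and 458 CPM in CLEC10A cDC2s, 242 and 241 CPM in DCIR2 cDC2s and 163 and 129 CPM in cDC1s, against 29244 and 26823 CPM in macrophages. The 10 monocyte markers summed to 943 and 940 CPM in CLEC10A cDC2s and to 544 and 559 CPM in DCIR2 cDC2s. They were at 235 CPM in cDC1s of either sample. Their sum was 1061 and 953 CPM in pDCs, 920 and 876 CPM in NK cells and 448 and 950 CPM in T cells. F13a1 and Ace were highest of the 9 types in CLEC10A cDC2s in both samples. Treml4 was highest in macrophages, Hp in mature DCs and Ccr2 in NK cells. The part of either list in these Tlr8 differences, and in the Tlr2 differences from CLEC10A cDC2s, was not tested.

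Tlr9, the receptor for unmethylated CpG DNA, was low in every type. It stood at 15.7 and 19 CPM in CLEC10A cDC2s, 13.5 and 13 CPM in DCIR2 cDC2s, 9.64 and 7.83 CPM in cDC1s and 5.42 and 7.75 CPM in macrophages. B cells had 12.6 and 17.0 CPM from 8 and 23 UMIs, and pDCs 5.33 and 25.3 CPM from 1 and 7 UMIs. The pDC values spanned those of macrophages, B cells and all other DC types, and 0 of the 8 steps in the order passed the test. Tlr9 was lower in macrophages than in the cDC mean (-0.93 ± 0.29, adjusted p = 0.0110), a call that was lost without replicate 1 of macrophages (-0.60, adjusted p = 0.311) or of cDC1s (adjusted p = 0.0504). It was lower in cDC1s than in CLEC10A cDC2s (-0.85 ± 0.28, adjusted p = 0.0268), and this was lost without any 1 of those 4 sums, with adjusted p between 0.0739 and 0.254, and without the filter on low counts (0.0530) or on cells (0.0575). At this depth no difference of pDCs from the cDC mean was detectable for Tlr9, with an interval from -0.93 to 1.43.

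Tlr13, a sensor of bacterial ribosomal RNA, was carried by all conventional DCs at overlapping levels. It stood at 54.4 and 46.0 CPM in cDC1s, 65.4 and 46.8 CPM in DCIR2 cDC2s, 54.6 and 44.7 CPM in CLEC10A cDC2s and 49.8 and 58.0 CPM in mature DCs, and these values overlapped throughout. cDC1s differed from DCIR2 cDC2s by 0.03, with an interval from -0.36 to 0.42, and from CLEC10A cDC2s by 0.15, from -0.25 to 0.55. Macrophages had 79.9 and 91.8 CPM and exceeded the cDC mean by 0.79 ± 0.15 (adjusted p = 0.000218). B cells had 6.28 and 0.737 CPM and T cells 6.44 and 7.33 CPM.

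Tlr11 and Tlr12, whose products bind profilin as partners, were both highest in cDC1s. Tlr11 stood at 267 and 234 CPM in cDC1s, 46.0 and 33.5 CPM in mature DCs, 29.7 and 34.8 CPM in CLEC10A cDC2s and 8.98 and 8.66 CPM in DCIR2 cDC2s. It had 0 UMIs in pDCs, at least 38.8-fold below cDC1s by the floor of 3 UMIs. In T cells, 10 of the 14 UMIs of replicate 1 came from 1 cell and gave 45.1 CPM, against 0.814 CPM in replicate 2. cDC1s exceeded DCIR2 cDC2s by 5.02 ± 0.34 (32.3-fold, adjusted p = 8.00e-10), CLEC10A cDC2s by 3.10 ± 0.30 (8.55-fold, adjusted p = 1.28e-07) and mature DCs by 2.72 ± 0.32 (adjusted p = 1.93e-06). UMIs of Tlr11 were seen in 89.6% of cDC1s (interval from 87.1% to 91.8%) and 88.6% (interval from 85.6% to 91.1%), 20.9% and 22.8% of CLEC10A cDC2s and 8.27% and 9.21% of DCIR2 cDC2s, against 9.76% and 0.629% of T cells.

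Tlr12 had the same leading type at lower counts. It stood at 42.0 and 40.8 CPM in cDC1s and 9.94 and 10.2 CPM in macrophages. It was at 6.31 and 3.50 CPM in mature DCs, 2.75 and 3.21 CPM in CLEC10A cDC2s and 1.38 and 0.333 CPM in DCIR2 cDC2s, where 8 of the 10 UMIs of replicate 1 lay in 1 cell. cDC1s were above all other types in both samples. They exceeded DCIR2 cDC2s by 5.66 ± 0.42 (50.5-fold, adjusted p = 1.51e-09), CLEC10A cDC2s by 3.92 ± 0.36 (15.2-fold, adjusted p = 4.99e-08) and the next type, macrophages, by 2.08 ± 0.32 (adjusted p = 3.57e-05). In macrophages Tlr12 lay above the cDC mean (1.12 ± 0.33, adjusted p = 0.00777) but Tlr11 below it (-1.88 ± 0.34, adjusted p = 9.23e-05), and the ratio of Tlr12 to Tlr11 UMIs was 0.873 and 1.09 in macrophages against 0.157 and 0.174 in cDC1s. The Tlr12 call was lost without replicate 1 of macrophages (adjusted p = 0.0724). The 10 cDC1 markers summed to 1781 and 1847 CPM in macrophages and to 8350 and 8289 CPM in cDC1s, and their part in the macrophage values was not tested.

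Both cDC2 types differed in Tlr11. It was lower in DCIR2 than in CLEC10A cDC2s by -1.92 ± 0.36 (adjusted p = 0.00243), and DESeq2 gave the same size but no call (-1.94, adjusted p = 0.204). The cDC1 markers summed to 1005 and 962 CPM in CLEC10A cDC2s and 1098 and 1003 CPM in DCIR2 cDC2s, and the gate gene Clec9a stood at 140 and 134 CPM against 27.4 and 20.8 CPM. Among cells without a UMI of Clec9a or Xcr1, 273 and 220 CLEC10A cDC2s still had 24.2 and 22.5 CPM of Tlr11, and 420 and 362 DCIR2 cDC2s had 8.52 and 7.31 CPM. The ratio of Tlr11 to Tlr3 UMIs was 0.895 and 0.854 in cDC1s, 1.23 and 0.776 in DCIR2 cDC2s, 2.61 and 4.53 in CLEC10A cDC2s and 12.2 and 9.57 in mature DCs, the last over 6 and 7 Tlr3 UMIs. The DCIR2 cDC2 values lay on both sides of those of cDC1s, and the part of cDC1 transcripts in the cDC2 values was not tested. Tlr12 was lower in DCIR2 cDC2s as well but missed the threshold (-1.73 ± 0.59, adjusted p = 0.102), and passed without the cell with most UMIs in each sum (-2.92, adjusted p = 0.0115).

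The 3 genes that were higher in cDC1s than in both cDC2 types are dispersed in the genome. In GRCm38, Tlr3 lies at chr8:45395665-45411080 on the minus strand, Tlr11 at chr14:50357914-50363663 on the plus strand and Tlr12 at chr4:128615443-128618619 on the minus strand. The GENCODE vM21 annotation gives Tlr12 as 1 exon and Tlr11 as 2, and a predicted gene, Gm45542, overlaps Tlr3 on the other strand, and the sources used here do not say whether counting used strand. The 250 bases before the RefSeq start of each (GRCm38.p6) are shown because these genes share their leading cell type. For Tlr3 these bases lie inside the span of the gene given above, and for Tlr11 and Tlr12 they end next to it. Capitals mark matches to AANNGAAA, the core of interferon regulatory factor (IRF) sites, GAAANNGAAA, an interferon response element, or AGGAAGT, the core of ETS sites, on either strand and with overlaps kept, and the letters were chosen after the sequences had been read. The windows are chr8:45410381-45410630 (minus), chr14:50357664-50357913 (plus) and chr4:128618620-128618869 (minus), each printed 5′ to 3′ on the strand of its gene.
Tlr3: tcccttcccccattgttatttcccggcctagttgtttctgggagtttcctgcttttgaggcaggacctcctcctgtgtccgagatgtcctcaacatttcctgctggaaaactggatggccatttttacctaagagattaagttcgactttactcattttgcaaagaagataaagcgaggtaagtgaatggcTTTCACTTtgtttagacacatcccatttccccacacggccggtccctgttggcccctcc
Tlr11: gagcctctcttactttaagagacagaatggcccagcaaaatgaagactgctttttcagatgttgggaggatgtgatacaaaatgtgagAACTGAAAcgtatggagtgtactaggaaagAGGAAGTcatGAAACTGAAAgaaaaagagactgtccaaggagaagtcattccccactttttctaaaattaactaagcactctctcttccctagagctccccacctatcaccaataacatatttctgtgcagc
Tlr12: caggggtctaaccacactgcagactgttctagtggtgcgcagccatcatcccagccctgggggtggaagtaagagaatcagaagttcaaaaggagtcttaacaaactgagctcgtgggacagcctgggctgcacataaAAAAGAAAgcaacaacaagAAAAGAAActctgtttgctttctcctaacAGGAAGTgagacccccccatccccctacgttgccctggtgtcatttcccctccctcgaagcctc

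AANNGAAA matched 1 time in the Tlr3 window, on the opposite strand 59 bases before the start, and 2 times each in Tlr11 and Tlr12. GAAANNGAAA matched 1 time, in Tlr11, and AGGAAGT matched 1 time in Tlr11 and 1 time in Tlr12. Matches were not particular to these 3 genes. Of the other members in the table, Tlr2 had 2 matches of AANNGAAA. Tlr1, which was lower in cDC1s than in both cDC2 types, had 2 windows. Of these, 1 had a match of AANNGAAA and the other 1 of AGGAAGT. Tlr8, Tlr9 and Tlr13 had 0 of any. Over all 32851 promoters of the table, 21.3% held AANNGAAA, 2.98% held GAAANNGAAA and 7.69% held AGGAAGT. A composite of both factor families, GGAANNGAAA, was in none of the 3 windows (0) and in 2.30% of promoters. A match is a run of letters, and binding was not measured.

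Macrophages were then compared with the cDC mean across the whole family. Of the 10 receptors, 7 were higher in macrophages (Tlr1, Tlr2, Tlr4, Tlr7, Tlr8, Tlr12 and Tlr13), where 27.5% of all genes were, and 2 were lower (Tlr9 and Tlr11), where 26.6% were. This mean averages unlike types. Macrophages had less Tlr1 than both cDC2 types in both samples. The difference was -0.73 ± 0.19 from CLEC10A cDC2s (adjusted p = 0.00608) and -0.50 ± 0.19 from DCIR2 cDC2s (adjusted p = 0.0560). They also had less Tlr12 than cDC1s, as given above. The median of the receptors was 0.95, against -0.03 over all genes. Tlr3 did not pass (0.14 ± 0.17, interval from -0.22 to 0.50), although macrophages had more Tlr3 than either cDC2 type in both samples, and it passed without the filter on cells (0.44, adjusted p = 0.0173). The Tlr1 difference of 0.45 ± 0.16 (adjusted p = 0.0230) was lost without replicate 1 or 2 of macrophages (adjusted p = 0.0656 and 0.119) or replicate 2 of either cDC2 type (0.0691 and 0.0616).

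**Figure D3:**
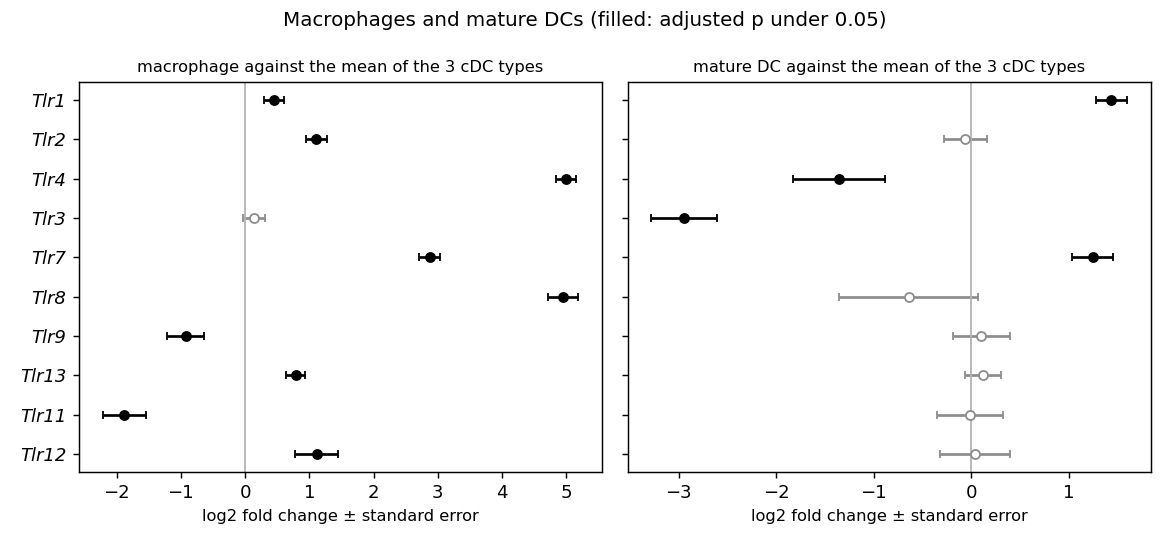
Log2 fold change of each receptor in macrophages (left) and mature DCs (right) against the mean of the 3 cDC types, with the standard error as a bar and filled points for an adjusted p under 0.05. Tlr4 and Tlr8 lead in macrophages with 4.99 and 4.95, and Tlr3 is the lowest in mature DCs with -2.94.

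Mature DCs, the Ccr7+ cells that carry antigen to T cell zones, had some receptors at the level of cDCs and little of others. Against the cDC mean, 2 receptors were higher (Tlr1 by 1.44 ± 0.16, adjusted p = 4.73e-07, and Tlr7 by 1.25 ± 0.21, adjusted p = 0.000101), where 18.2% of all genes were, and 2 were lower, where 14.9% were. Tlr3 was lower by -2.94 ± 0.34 (7.68-fold, adjusted p = 9.68e-07), from 6 and 7 UMIs in 138 and 173 cells, and Tlr4 was described above. Tlr7 in mature DCs was still below both cDC2 types in both samples. Tlr11 did not differ from the cDC mean beyond its interval of -0.72 to 0.69, a mean of unlike types. It was lower in mature DCs than in cDC1s (-2.72 ± 0.32, adjusted p = 1.93e-06) and higher than in DCIR2 cDC2s (2.30 ± 0.40, adjusted p = 0.00016). In mature DCs without a UMI of Clec9a or Xcr1 (106 and 122 cells), Tlr11 was at 31.7 and 27.7 CPM and Tlr3 at 1.76 and 2.31 CPM.

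pDCs gave 2 calls in the 10 receptors, both lower than the cDC mean, where 4.91% of all genes were higher and 4.76% lower. Tlr3 (1 UMI in all, adjusted p = 0.00590) and Tlr11 (0 UMIs, adjusted p = 0.0197) were the genes. Both calls were lost without replicate 2 of pDCs (adjusted p = 0.163 and 0.189) and with cells of more than 1 gate left out (0.0503 and 0.155), which removed 9 of 13 and 12 of 19 cells. The Tlr11 call was also lost without replicate 1 of pDCs (0.0839), and there Tlr1 became a call (-2.51, adjusted p = 0.00504).

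B cells exceeded T cells in 4 receptors and were lower in 0, where 8.50% of all genes were higher and 9.32% lower. The genes were Tlr1 (0.98 ± 0.27, adjusted p = 0.0143), Tlr4 (2.02 ± 0.61, adjusted p = 0.0255), Tlr7 (2.16 ± 0.46, adjusted p = 0.00208) and Tlr9 (adjusted p = 0.00342, against 0 and 2 UMIs in T cells). Without replicate 2 of T cells 0 of these 4 passed, with adjusted p of 0.281 for Tlr1, 0.582 for Tlr4, 0.314 for Tlr7 and 0.0844 for Tlr9, and Tlr11 passed as lower in B cells (0.000627) on the T cell named above. Without replicate 2 of B cells, Tlr4 (0.662) and Tlr9 (0.0509) were lost. In the B cell gate, 5 plasma cell markers summed to 7018 CPM in replicate 1 and 1254 CPM in replicate 2, while Tlr4 was at 7.85 and 24.3 CPM, and the part of plasma cells in these values was not tested.

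Macrophages and cDC1s were then split by at least 1 UMI of Siglec1 or Cd207, genes known from cells of the marginal zone. Siglec1+ macrophages were 112 and 56 of the macrophages, and Langerin+ cDC1s (with Cd207) were 116 and 112 of the cDC1s. The macrophage gate as a whole was highest in all 12 macrophage markers. These include Spic, Hmox1, Slc40a1 and Adgre1, genes known from red pulp macrophages, but also Siglec1. No other macrophage type was gated, so the markers do not tell kinds of macrophage apart. Between Siglec1+ and Siglec1-negative cells, 0 of 10851 genes were called higher and 0 lower. With 2 sums per group and a split on 1 UMI, which a cell can miss, this cannot show that the groups are alike. The Siglec1+ cells are therefore named by that UMI only, and were not identified as marginal metallophilic macrophages. The 4 groups were fitted over 10851 genes. Langerin+ and Langerin- cDC1s had the same leading receptors. Tlr3 had 287 and 300.2 CPM in the Langerin+ group, against 301 and 267 CPM in the Langerin- group, and the values overlapped (0.14 ± 0.11, interval from -0.10 to 0.37). Tlr11 was at 264 and 263 CPM against 268 and 226 CPM (0.18 ± 0.11, interval from -0.05 to 0.42), and Tlr12 at 43.0 and 41.1 CPM against 41.7 and 40.7 CPM (0.12 ± 0.16, interval from -0.22 to 0.46).

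Of the 10 receptors, 0 were called higher and 0 lower in Langerin+ than in Langerin- cDC1s by edgeR, and 0 by DESeq2, where 0.120% of all genes were higher and 0.267% lower. With an unadjusted p under 0.05 there were 3, namely Tlr1, Tlr4 and Tlr7, where 900 of 10851 genes were. Tlr1 was at 4.47 and 5.43 CPM in the former and 11.7 and 13.1 CPM in the latter, without overlap (-1.22 ± 0.28, adjusted p = 0.119). It passed without the filter on low counts (adjusted p = 0.0118) and without the filter on cells (0.0464). Tlr4 was at 11.4 and 12.8 CPM against 9.16 and 7.52 CPM (0.62 ± 0.22, adjusted p = 0.422), and Tlr7 was at 1.62 and 0.388 CPM, from 4 and 1 UMIs, against 2.68 and 4.25 CPM (-1.66 ± 0.63, adjusted p = 0.461).

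**Figure D4:**
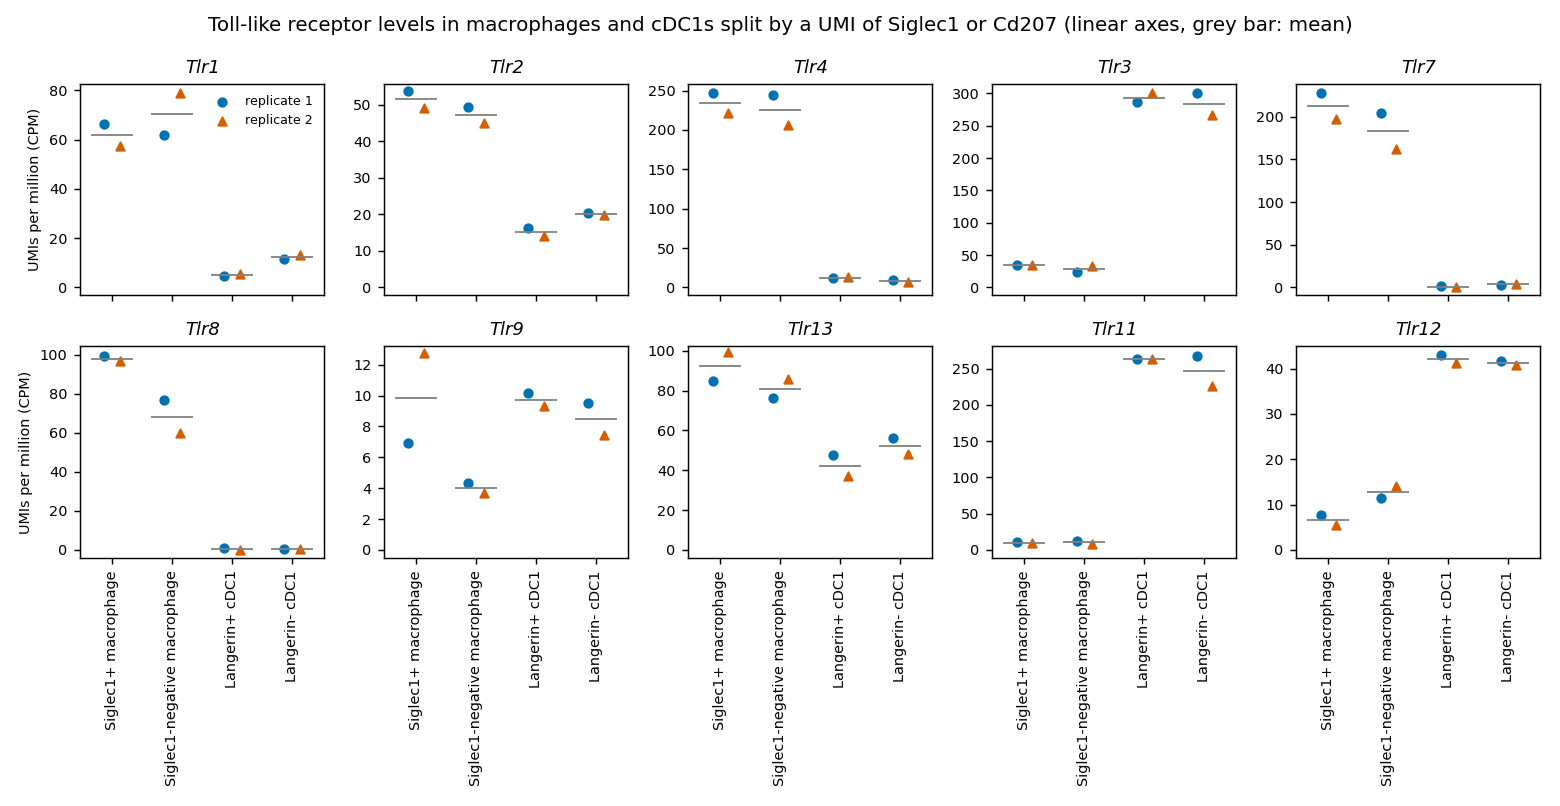
Level of each receptor (CPM, linear axes, a scale for each gene) in Siglec1+ and Siglec1-negative macrophages and in Langerin+ and Langerin- cDC1s, with a circle for replicate 1, a triangle for replicate 2 and a grey bar for their mean. For Tlr3, Tlr11 and Tlr12 both cDC1 groups lie together, at 41.4 CPM on average for Tlr12 in all cDC1s, and for Tlr4 and Tlr7 both macrophage groups do.

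Between Siglec1+ and Siglec1-negative macrophages, 0 receptors were called higher and 0 lower by edgeR, and 0 by DESeq2. The background was 0% of genes in each direction, with 619 of 10851 genes at an unadjusted p under 0.05, and 3 of the 10 receptors (Tlr8, Tlr9 and Tlr12). Tlr4 was at 247 and 221 CPM in Siglec1+ and 244 and 207 CPM in Siglec1-negative macrophages (0.04 ± 0.13, interval from -0.24 to 0.31). Tlr7 was at 227 and 197 CPM against 205 and 162 CPM (0.19 ± 0.17, interval from -0.17 to 0.55). Tlr8 was at 99.4 and 96.5 CPM against 76.6 and 59.8 CPM (0.48 ± 0.20, adjusted p = 0.857). Tlr9 was at 6.94 and 12.8 CPM, from 16 and 14 UMIs, against 4.34 and 3.69 CPM, from 14 and 5 UMIs (1.13 ± 0.46, adjusted p = 0.852). Tlr12 was at 7.81 and 5.46 CPM against 11.5 and 14 CPM (-0.83 ± 0.31, adjusted p = 0.842).

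Siglec1+ macrophages and Langerin+ cDC1s differed in 9 of 10 receptors, 6 higher in the macrophages and 3 lower, where 27.4% of all genes were higher and 25.9% lower. Tlr7 was higher in Siglec1+ macrophages by 7.59 ± 0.34 (adjusted p = 1.41e-09) and Tlr4 by 4.16 ± 0.18 (adjusted p = 7.73e-10). Tlr8 passed too (adjusted p = 1.34e-08), with 3 UMIs in all Langerin+ cDC1s, as did Tlr1, Tlr2 and Tlr13. Langerin+ cDC1s were higher in Tlr11 (-4.79 ± 0.18 for the macrophages, adjusted p = 2.94e-10), Tlr3 (-3.18 ± 0.15, adjusted p = 1.62e-09) and Tlr12 (-2.69 ± 0.25, adjusted p = 1.28e-06). Tlr9 did not pass (interval from -1.06 to 0.66), with 6.94 and 12.8 CPM in the macrophages against 10.2 and 9.31 CPM in the cDC1 group.

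The genes that work with the receptors were read from a list of 54, of which 52 were tested. CD14 and MD-2, the partners that load lipopolysaccharide on TLR4, were highest in macrophages like Tlr4. Cd14 stood at 350 and 396 CPM in macrophages and at no more than 11.1 CPM elsewhere, and was 6.33 ± 0.18 above the cDC mean (adjusted p = 2.24e-15). Ly96, which encodes MD-2, stood at 88.2 and 81.6 CPM in macrophages and 32.8 and 26.0 CPM in mature DCs, and was 3.40 ± 0.16 above the cDC mean in macrophages (adjusted p = 4.24e-13). Macrophages thus held the receptor and both partners, whereas mature DCs held Ly96 with little Tlr4. Ticam2, the bridging adaptor between TLR4 and TRIF, was at 40.8 and 37.6 CPM in DCIR2 cDC2s and 3.32 and 3.49 CPM in cDC1s (-3.32 ± 0.24, adjusted p = 1.48e-09).

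**Figure D5:**
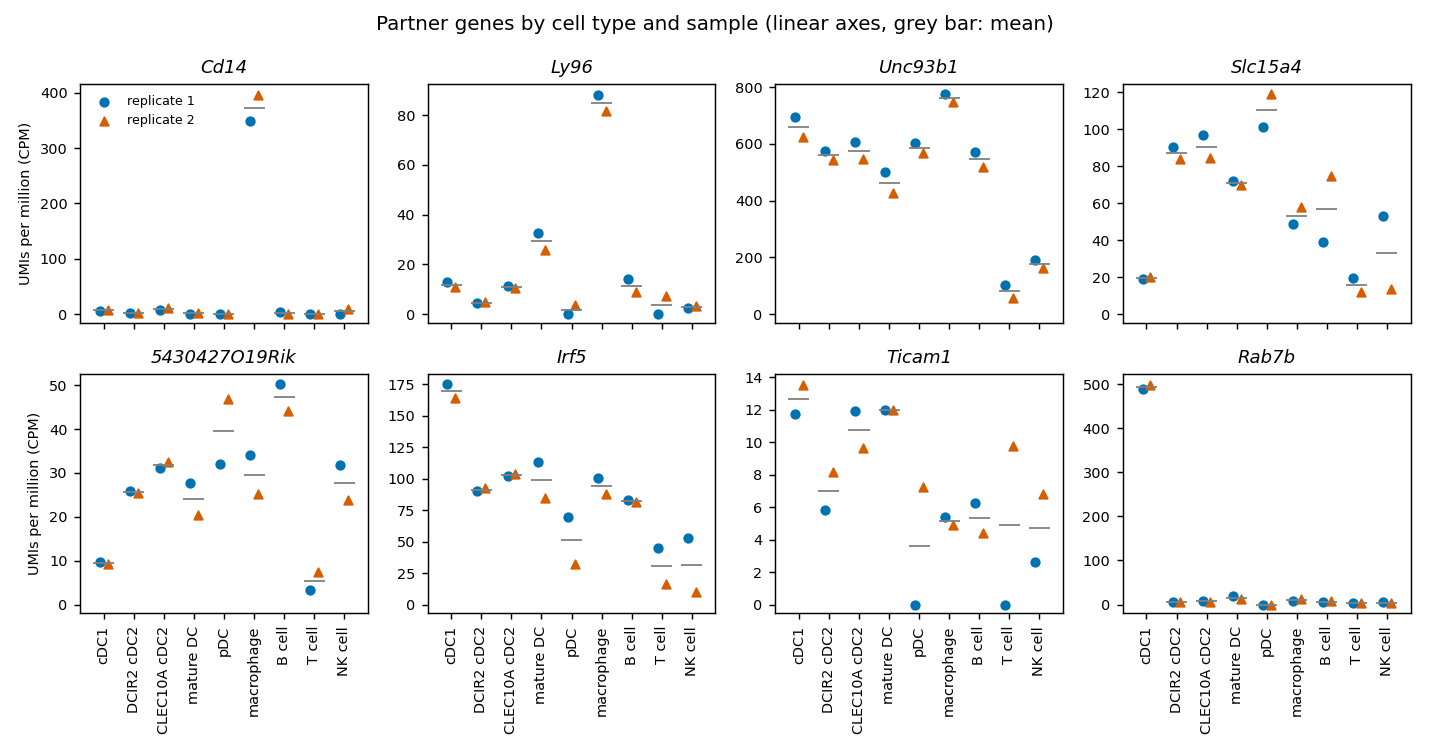
Level of 8 partner genes of the receptors (CPM, linear axes, a scale for each gene) in the 9 cell types, with a circle for replicate 1, a triangle for replicate 2 and a grey bar for their mean. Cd14 and Ly96 are highest in macrophages, Rab7b stands out in cDC1s, and Slc15a4 is at 18.9 and 20.3 CPM in cDC1s, below both cDC2 types.

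Of the 8 genes of trafficking and folding, 4 were higher and 2 lower in cDC1s than in DCIR2 cDC2s, where 17.0% and 17.2% of all genes were, and 2 were higher and 2 lower than in CLEC10A cDC2s, where 14.1% and 15.0% were. Unc93b1, which carries nucleic acid receptors to endosomes, stood at 777 and 747 CPM in macrophages, 695 and 626 CPM in cDC1s and 576 and 545 CPM in DCIR2 cDC2s, and at 103 and 58.6 CPM in T cells. Slc15a4 and 5430427O19Rik were named after their values were seen. Slc15a4, an endosomal transporter needed for TLR7 to TLR9 signals, was at 18.9 and 20.3 CPM in cDC1s, 90.4 and 83.6 CPM in DCIR2 cDC2s and 96.7 and 84.2 CPM in CLEC10A cDC2s. It was lower in cDC1s by -1.95 ± 0.20 (adjusted p = 1.63e-07) and -2.07 ± 0.20 (adjusted p = 1.09e-07). Its adaptor TASL, from 5430427O19Rik, was at 9.72 and 9.28 CPM in cDC1s, 26.0 and 25.3 CPM in DCIR2 cDC2s and 31.1 and 32.5 CPM in CLEC10A cDC2s (-1.24 ± 0.20, adjusted p = 4.47e-05, and -1.60 ± 0.20, adjusted p = 2.29e-06). Irf5, the factor that TASL recruits, was higher in cDC1s at 175 and 164 CPM against 90.1 and 92.3 CPM in DCIR2 cDC2s (1.09 ± 0.20, adjusted p = 0.000263). Irf7, a factor of interferon induction, was at 54.2 and 51.3 CPM against 39.5 and 38.6 CPM (0.63 ± 0.17, adjusted p = 0.00734), and did not pass against CLEC10A cDC2s at 47.4 and 52.6 CPM (0.21 ± 0.17, adjusted p = 0.395).

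Ticam1, which encodes TRIF, the adaptor of TLR3, was at 11.8 and 13.5 CPM in cDC1s, 5.81 and 8.16 CPM in DCIR2 cDC2s (1.05 ± 0.33, adjusted p = 0.0192) and 11.9 and 9.62 CPM in CLEC10A cDC2s (0.36 ± 0.33, adjusted p = 0.461). Rab7b, a small GTPase of late endosomes, stood at 490 and 499 CPM in cDC1s and at no more than 18.9 CPM in other types. Cd36, a scavenger receptor that serves TLR2 with TLR6, was at 458 and 417 CPM in cDC1s and 4.84 and 4.83 CPM in DCIR2 cDC2s. Irf8, which encodes the regulatory factor that defines the cDC1 lineage, was at 1857 and 1959 CPM in cDC1s against 18.1 and 24.7 CPM in DCIR2 cDC2s and 71.6 and 84.4 CPM in CLEC10A cDC2s. Rab7b, Cd36 and Irf8 had the largest called differences of the list in cDC1s, 6.60, 6.68 and 6.68 against DCIR2 cDC2s and 6.23, 5.22 and 4.75 against CLEC10A cDC2s. Myd88 was at 62.9 and 59.0 CPM in cDC1s, 85.8 and 90.3 CPM in DCIR2 cDC2s and 60.8 and 57.5 CPM in macrophages.

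Of the 52 partner genes tested, 14 were higher and 16 lower in cDC1s than in DCIR2 cDC2s, where 17.0% and 17.2% of all genes were. Against CLEC10A cDC2s 8 were higher, a share near the 14.1% of all genes, and 18 lower, where 15.0% were. Between both cDC2 types 1 was higher in DCIR2 cDC2s, the inhibitory receptor gene Cd300lf (0.71 ± 0.19, adjusted p = 0.0304), and 4 were lower, Irf8 the most (-1.93 ± 0.21, adjusted p = 8.51e-06), where 2.00% and 3.55% of all genes were. In macrophages 20 were higher and 17 lower than the cDC mean, where 27.5% and 26.6% of all genes were, with Rel, a subunit of NF-kappa-B, at -1.90 ± 0.15 (adjusted p = 8.31e-10). Of the 6 inhibitors of signalling in the list, 5 were higher and 1 lower in macrophages. In mature DCs 16 were higher and 11 lower, where 18.2% and 14.9% of all genes were, led by Relb (2.78 ± 0.16, adjusted p = 5.63e-11), Irf7 (-1.84 ± 0.23, adjusted p = 2.69e-06) and Nfkbia (1.61 ± 0.17, adjusted p = 2.24e-07). In pDCs 3 were higher and 6 lower, where 4.91% and 4.76% of all genes were, with Irf8 at 1.34 ± 0.19 and Irf5 at -1.47 ± 0.38 against the cDC mean (adjusted p = 7.88e-05 and 0.0172). Rab7b had 0 UMIs in pDCs. B cells exceeded T cells in 18 and were lower in 3, where 8.50% and 9.32% of all genes were, led by Irak3 (5.36 ± 0.82), Cd180 (3.77 ± 0.38) and Ly86 (3.76 ± 0.22), the last pair encoding the receptor RP105 and its partner MD-1.

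Within cDC1s, Tlr3 and Tlr11 UMIs were both seen in 540 of 684 and 442 of 568 cells (78.9% and 77.8%), where the product of their shares gives 517 and 423. Tlr11 and Tlr12 were both seen in 298 and 254 cells, where the product gives 282 and 236. With Tlr3 and Tlr11 seen in most cells, joint counts lie near the product with or without a link. Tlr12 was seen in 48.6% and 50.5% of cDC1s with a Tlr11 UMI, against 23.9% and 20% of those without. Tlr11 was seen in 93.6% and 92.5% of cDC1s with a Tlr3 UMI, against 68.2% and 67.8% of those without. A deeper cell is more likely to show both, so depth and shared expression cannot be told apart here. Tlr3 and Tlr7 UMIs were seen together in 12 and 13 cDC1s, where the product gives 18.6 and 13.5. In macrophages Tlr7 and Tlr8 were both seen in 167 and 62 cells (57.0% and 47.7%), where it gives 155 and 60.1.

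Genes whose levels ran most like those of each receptor were ranked by Pearson's r over the 18 sums of 9 types in 2 samples, as a description, since sums of 1 type share their cell type and a library. The nearest were Zmat1 for Tlr1 (0.87), Ltbr for Tlr2 (0.90), the unnamed AB124611 for Tlr4 (0.92), Ppt1 for Tlr3 (0.90), Abi3 for Tlr7 (0.92) and Hcar2 for Tlr8 (0.98). They were Nf1 for Tlr9 (0.88), Gsto1 for Tlr13 (0.94), Cxcl16 for Tlr11 (0.87) and Ap3d1 for Tlr12 (0.81). For Tlr3, Rab7b came next (0.86). With Spearman's rho in place of r, 10 of the 30 genes in the top 3 lists were shared.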

How the data were processed

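Splenic CD11c+ cells of 2 wild-type samples were analysed, with 46953398 and 43137746 UMIs in 3308 and 3085 cells. The authors deposited UMI counts per cell and gene, without normalization, from the BD Rhapsody WTA Analysis Pipeline 1.12.1 on GRCm38, and the submitters' processing notes also name R 4.2.3 and Seurat 4.3.0.1. Annotation coordinates came from GENCODE vM21 and promoters from RefSeq, which held 8 of the 10 members.

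Cells with at least 200 genes and within the mean ± 3 median absolute deviations were kept, 2928 and 2723, and no doublets were removed. Of these, 21.0% and 22.1% met no gate. UMIs were summed per sample and type (187135 to 13236500 per sum, gate genes left out). Sums were tested with edgeR 4.0.16 (filterByExpr, TMM, quasi-likelihood test, Benjamini-Hochberg adjustment, threshold 0.05) in R 4.3.3, with limma 3.58.1. DESeq2 1.42.0 was an alternative. Other alternatives changed the scaling, the filters, the gates and the sums used. A separate fit over 10851 genes took the subsets of macrophages and cDC1s. Python 3.11.15, numpy 2.4.6, pandas 2.3.3, scipy 1.17.1 and matplotlib 3.10.9 made tables and figures. Each test was tested on simulated data.

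All types come from the same samples, so a sample could shift its sums together. The deviations of a sample from the type means correlated between types by -0.05 to 0.13 (median 0.03), and by 0.12 between Langerin+ and Langerin- cDC1s. Counts of both replicates of a type differed by more than sampling noise (chi-square divided by its degrees of freedom, 2.49 to 6.68).

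All 10 members were named. From 54 partner genes, those named were the 3 with the largest called change in each comparison with at least 50 CPM, and Unc93b1, Cd14, Ly96, Cd180, Ly86, Myd88, Ticam1, Irf5, Irf7, Tlr5 and Tlr6. Slc15a4, 5430427O19Rik and Ticam2 were named after their values were seen. The members and lists were chosen with earlier results of these data known. Sequences of the receptor proteins were not used here.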

Additional observations from a re-analysis of the deposited data

How the results depend on the processing

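Of 46 called differences of single receptors, 29 were kept under every setting tested. In settings other than leaving out a sum, 353 of 368 values of called differences stayed past the threshold and 15 were lost, and 9 of 432 values of the others became calls. In fits without 1 sum of a sample and type, where the lone sum is taken to vary like the other types, 36 of 244 values were lost. No called difference changed sign in any of these fits (0). With the sample as a replicate block, 0 of 100 calls changed, and the 7 receptors called between cDC1s and DCIR2 cDC2s stayed 7. For Langerin+ against Langerin- cDC1s, 1 receptor was called without the filter on low counts and 1 without the filter on deviations, against 0. For pDCs, 0 were called with cells passing 1 gate only, against 2. Leaving out 1 sum gave 5 to 7 calls for cDC1s against DCIR2 cDC2s, 6 to 8 against CLEC10A cDC2s and 1 to 3 between both cDC2 types (main value 3). It gave 0 to 3 for pDCs, 6 to 9 for macrophages, 3 to 4 for mature DCs and 1 to 4 for B against T cells. It gave 9 for Siglec1+ macrophages against Langerin+ cDC1s, 0 for both subset comparisons, 10 for the test among 9 types and 9 to 15 for neighbouring types. In each replicate alone, with no test, Tlr4 of B against T cells was -0.27 in replicate 1 and 2.58 in replicate 2. The setting without the cell with most UMIs was chosen after seeing the data. The highest type by thinned share was the highest by CPM in both samples for 9 of 10 receptors at 3000 UMIs and 10 at 1000. Values of pDCs, T cells and NK cells are limited by depth, where 1 UMI is worth up to 5.33 CPM.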

Other observations

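Cells that met no gate, 616 in replicate 1 and 602 in replicate 2, carried the receptors at levels near those of cDC2s. Tlr1 stood at 127 and 103 CPM in them, Tlr7 at 84.7 and 79.1 CPM, Tlr13 at 59.5 and 51.0 CPM, Tlr11 at 19.2 and 17.0 CPM and Tlr3 at 14.2 and 7.92 CPM.

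Cells with at least 3 UMIs of Siglech and 1 of Cx3cr1 were taken outside the macrophage, mature DC, cDC1 and pDC gates. They numbered 28 in replicate 1 and 18 in replicate 2. Tlr7 stood at 93.8 and 35.9 CPM in them, from 35 and 9 UMIs, Tlr9 at 21.4 and 16.0 CPM, from 8 and 4 UMIs, and Tlr1 at 77.7 and 51.9 CPM. Tlr11 had 0 and 1 UMIs.

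In cDC1s, 1 cell of replicate 2 held 17 of the 134 UMIs of Tlr1. A cell of replicate 2 held 10 of the 40 UMIs of Tlr7 in cDC1s.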
